A study of Mus musculus with 6 samples.

Results

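The cells described here are those that the annotation deposited with the study names M-MDSCs, short for monocytic myeloid-derived suppressor cells. They were taken as annotated: all 350 of them form cluster 23 of that annotation, out of 58794 annotated cells from 6 mice. The study examined whether chronic stress changes liver tumors. Male wild-type C57BL/6J mice were obtained at 8 weeks of age, and H22, a mouse hepatocellular carcinoma cell line, was implanted into their livers after the stress period; the tumors were dissociated and sequenced as 10x Genomics libraries, 1 per mouse. The 3 control mice stayed in standard housing and the 3 stress mice first went through 21 days of chronic unpredictable mild stress. All 6 carried tumors of the same implanted line, so every cancer cell descends from 1 line and the other cells come from the male host. The 350 cells came from the control mice in numbers of 15, 108 and 83, and from the stress mice in numbers of 25, 50 and 69. They are set beside the tumor cells (29638 cells), the inflammatory myeloid cells (6307 cells) and the monocytes (6260 cells) of the same mice.

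Myeloid-derived suppressor cells are immature or activated myeloid cells that accumulate in tumors and restrain T cells. They do so by consuming arginine through arginases, by making reactive oxygen and nitrogen species, and by displaying inhibitory ligands. The monocytic kind resembles inflammatory monocytes and carries Ly6c2, Ccr2 and Csf1r, and the granulocytic kind resembles neutrophils and carries S100a8, S100a9 and Csf3r.

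The libraries held 149558935 to 187728350 UMIs (unique molecular identifiers, each a counted RNA molecule) in 7239 to 11752 annotated cells. The headers of the matrices name Cell Ranger 9.0.0 for the 3 control mice and 7.1.0 for the 3 stress mice, so in every comparison of the groups the effects of stress and of the counting version cannot be told apart. Between 100 and 148 barcodes of a library also occurred in another, among them 6 of the 350 cells. Summed levels are given as CPM, the UMIs of a gene scaled to the same total in every mouse and class, and an SD is over the 6 mice unless said otherwise.

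The 3 genes given as markers of the class were all detected, and each was lower than in the inflammatory myeloid cells. Acod1, which makes the immune metabolite itaconate in activated myeloid cells, lies at chr14:103046977-103056573 on the plus strand of GRCm38. Its level in the M-MDSC-annotated cells was 18.0, 238 and 95.7 CPM in the control mice and 140, 239 and 480 CPM in the stress mice. The 1st control mouse was the lowest and the groups overlapped. The mean was 202 ± 161 CPM (SD, n = 6), against 2.46 ± 2.37 CPM in tumor cells, 2332 ± 1273 CPM in inflammatory myeloid cells and 221 ± 88.0 CPM in monocytes.

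Itgam, the integrin chain CD11b that marks myeloid cells broadly, lies at chr7:128062640-128118491 on the plus strand. Its level was 2.58, 18.4 and 22.7 CPM in the control mice and 9.11, 14.2 and 24.3 CPM in the stress mice. The mean of 15.2 ± 8.33 CPM (SD, n = 6) compares with 198 ± 66.4 CPM in inflammatory myeloid cells and 270 ± 91.4 CPM in monocytes, so the marker was far lower in the class than in either. Arg2, the mitochondrial arginase, lies at chr12:79130777-79156301 on the plus strand. Its level was 30.9, 45.9 and 53.8 CPM in the control mice and 36.4, 57.6 and 91.7 CPM in the stress mice, with a mean of 52.7 ± 21.6 CPM (SD, n = 6) against 773 ± 232 CPM in inflammatory myeloid cells. Since the class comes from clustering on these same genes, these levels and the others that compare classes are descriptions, with no test.

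The defining genes of the monocyte lineage were far below monocytes and inflammatory myeloid cells, and above tumor cells. The 16 listed monocyte and macrophage genes summed to 258 ± 77.2 CPM in the class (SD, n = 6), with a range of 183 to 374 CPM. That compares with 10588 ± 1136 CPM in monocytes and 3503 ± 903 CPM in inflammatory myeloid cells, of which the class held 7.37%. Tumor cells held 34.6 ± 11.6 CPM, less than the class in all 6 mice. Cd14, a receptor for bacterial lipopolysaccharide, made up much of the sum, at 158 ± 64.3 CPM against 6.16 CPM in tumor cells, 2662 CPM in inflammatory myeloid cells and 1506 CPM in monocytes. Ly6c2 was at 0, 4.59 and 0.797 CPM in the control mice and 1.52, 11.4 and 4.37 CPM in the stress mice, with a mean of 3.78 ± 4.18 CPM (SD, n = 6) against 40.3 CPM in inflammatory myeloid cells and 211 CPM in monocytes. Csf1r, the receptor for the macrophage growth factor CSF1, was at 7.74, 1.53 and 2.39 CPM in the control mice and 6.07, 4.98 and 4.37 CPM in the stress mice. The low levels of Ly6c2 and Csf1r go against the monocytic part of the annotated name, and the cells are called by that annotation without a claim about what they are.

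The 22 listed neutrophil genes, which also mark granulocytic suppressor cells, had a larger sum. They summed to 1575, 3342 and 2384 CPM in the control mice and 1933, 3026 and 7286 CPM in the stress mice. The 3rd stress mouse stood highest. The mean of 3258 ± 2080 CPM (SD, n = 6) was 6.86% of the 47474 CPM in inflammatory myeloid cells and far above the 57.2 ± 42.3 CPM in tumor cells. Monocytes had a higher mean of this list than the class, at 6018 ± 1828 CPM, with Srgn alone at 3946 CPM. All 6 mice had more of this list in the class than in their tumor cells.

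Tumor and proliferation genes were at tumor cell levels. The 17 tumor and epithelial genes, among them the keratins Krt8 and Krt18, the adhesion protein Epcam and the claudin Cldn6, summed to 1110 ± 194 CPM in the class and 1250 ± 92.4 CPM in tumor cells (SD, n = 6 each). Inflammatory myeloid cells held 374 ± 246 CPM and monocytes 289 ± 93.9 CPM of them. The 25 cell cycle genes summed to 2039 ± 577 CPM in the class against 2016 ± 441 CPM in tumor cells, with 520 ± 187 CPM in inflammatory myeloid cells. The class was above the tumor cells of its own mouse for cell cycle genes in 3 of 6 mice and for tumor and epithelial genes in 1 of 6.

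The genes of suppressor function lay in between. The 23 listed ones summed to 1636 ± 547 CPM in the class, 618 ± 71.9 CPM in tumor cells, 14005 ± 4913 CPM in inflammatory myeloid cells and 10201 ± 1631 CPM in monocytes (SD, n = 6 each). Of the 23 genes, 12 were above the tumor cells in all 6 mice and 16 were below the inflammatory myeloid cells in all 6. The same counts were 13 and 14 of 14 shared myeloid genes, and 16 and 20 of 22 neutrophil genes. An intermediate level was thus not particular to the genes of suppressor function. The 20 cytokines and chemokines summed to 5917 ± 2461 CPM against 947 ± 279 CPM in tumor cells and 59282 ± 14164 CPM in inflammatory myeloid cells. Monocytes held 24803 ± 5889 CPM of them. Mast cell and basophil genes were the 1 list of another lineage above every class it is set beside here, at 55.4 ± 42.5 CPM against 6.03 to 11.2 CPM. The lists of T and NK cells, B cells, dendritic cells, fibroblasts, red cells and hepatocytes each averaged at most 5.97 CPM, and the endothelial list 32.1 ± 12.4 CPM against 29.9 ± 6.67 CPM in tumor cells.

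**Figure D1:**
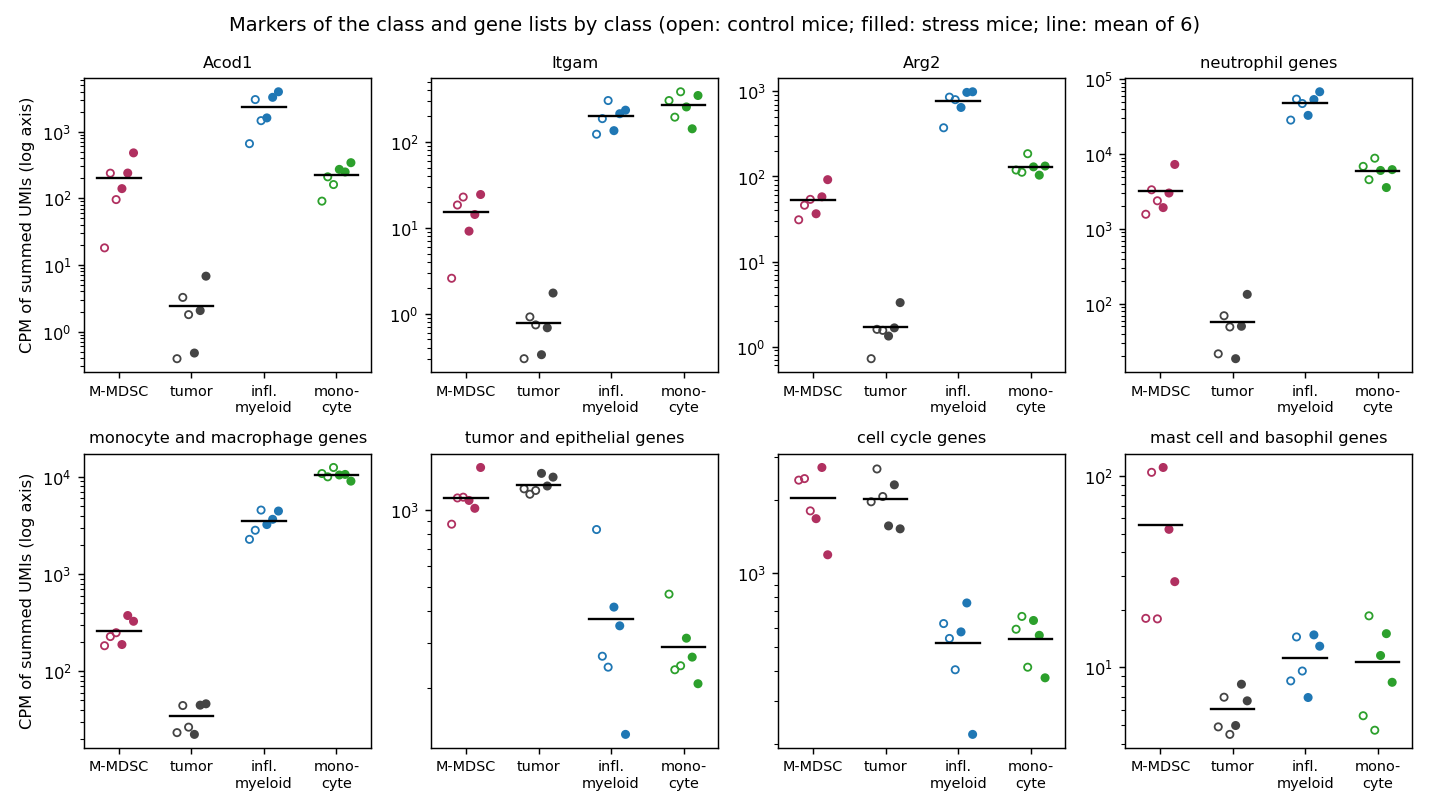
Each panel plots the CPM of summed UMIs (log axis) of a marker gene or gene list in 4 cell classes, 1 point per mouse, open for control and filled for stress mice, with a line at the mean of 6. Neutrophil genes in the M-MDSC-annotated cells lie between tumor cells and inflammatory myeloid cells, while tumor and cell cycle genes lie at the level of tumor cells.

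Gene by gene, the profile of the class differed from that of tumor cells mainly in a set of higher genes. Of 3474 genes with a mean of at least 50 CPM in either class, 97.6% were within 2-fold of the tumor cells, after 10 CPM was added to each mean. The other 82 genes were all higher in the class. Against inflammatory myeloid cells 43.6% of 4091 genes were within 2-fold, and against monocytes 61.2% of 4228. No gene of the 3359 with at least 50 CPM in the class was highest there among all annotated classes in all 6 mice.

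The genes with the largest ratio to tumor cells included chemokines and members of the neutrophil list. The leading one was Ccl4, a chemokine that draws monocytes and lymphocytes, at 1225 ± 938 CPM against 9.05 ± 7.14 CPM in tumor cells. Its relative Ccl3 was at 725 ± 460 CPM against 5.52 ± 3.46 CPM, and Cxcl2, a chemokine for neutrophils, at 1832 ± 728 CPM against 39.6 ± 25.8 CPM. S100a9, a subunit of calprotectin, was at 893 ± 783 CPM against 10.4 ± 9.34 CPM. The lead of Ccl4 rested on 90 cells of low depth described below, which held most of its UMIs, at 47033 CPM pooled. The other 260 cells were at 421 CPM of Ccl4, below their 960 CPM of S100a9 but above the 8.32 CPM of Ccl4 pooled over tumor cells. S100a8, Srgn, G0s2, Il1b, Ccl6 and Ifitm1 completed the first 10, all higher in 6 of 6 mice.

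Set against inflammatory myeloid cells, the leading genes were of another kind. Apart from Il6, an inflammatory cytokine at 63.0 ± 37.6 CPM against 3.34 ± 3.22 CPM, the first 10 were Pclaf, Birc5, Pbk, Top2a, Cks1b, Ccnd1, Anln, Dtymk and Rrm2, genes of DNA synthesis and cell division. The Il6 value came mostly from the 90 cells of low depth, at 2822 CPM pooled. Of the other 260 cells 10 had Il6, at 6.59 CPM pooled, near the 4.35 CPM pooled over inflammatory myeloid cells. Top2a, the topoisomerase of dividing cells, was at 252 ± 70.9 CPM against 54.8 ± 25.8 CPM, and Birc5, survivin, at 262 ± 87.9 CPM against 52.8 ± 24.96 CPM. Against monocytes the first 10 mixed the neutrophil genes G0s2, Hdc, S100a9 and Retnlg with genes such as Rhox5, Birc5 and Xist.

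Genes higher in inflammatory myeloid than in tumor cells were intermediate in the class. Among 638 genes at least 4-fold higher in inflammatory myeloid cells than in tumor cells, 636 had a class mean between both, and the median gene lay 7.37% of the way from the tumor to the myeloid level. In the other direction 2 genes were at least 4-fold higher in tumor cells, and both were above the tumor level in the class. A non-negative least squares fit described the class profile of each mouse as a weighted sum of the other classes of that mouse. The tumor cell weight averaged 89.95% ± 3.01 and the inflammatory myeloid weight 5.70% ± 2.87 (SD, n = 6), with R2 from 0.870 to 0.978. The inflammatory myeloid weight was lowest in the 1st control mouse, at 0.996%, where B cells had 3.37% and dendritic cells 2.89%. The monocyte weight averaged 0.169%, and those of B cells, endothelial cells, neutrophils, dendritic cells and NK/T cells averaged 0.554% to 0.997%. The weights describe the summed profile and not any single cell.

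The median cell was about as deep as the median tumor cell, and many cells were called doublets. The median M-MDSC-annotated cell held 27447.5 UMIs and 5469.5 detected genes, against 27716 UMIs and 5492 genes in tumor cells. The median inflammatory myeloid cell held 1547 UMIs and 688 genes, and the median monocyte 5291 UMIs and 1987 genes. Scrublet, which scores each cell by its likeness to simulated sums of a pair of cells of its library, called 219 of the 350 cells (62.6%) doublets. It called 1.45% of tumor cells, 2.27% of inflammatory myeloid cells, 5.48% of monocytes and 4.70% of all annotated cells. Per the study's methods, cells called doublets by the same tool had already been taken out before annotation, so these calls are on cells that had passed that step. The calls were kept in the main results, and whether a called cell held the RNA of more than 1 cell was not tested.

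**Figure D2:**
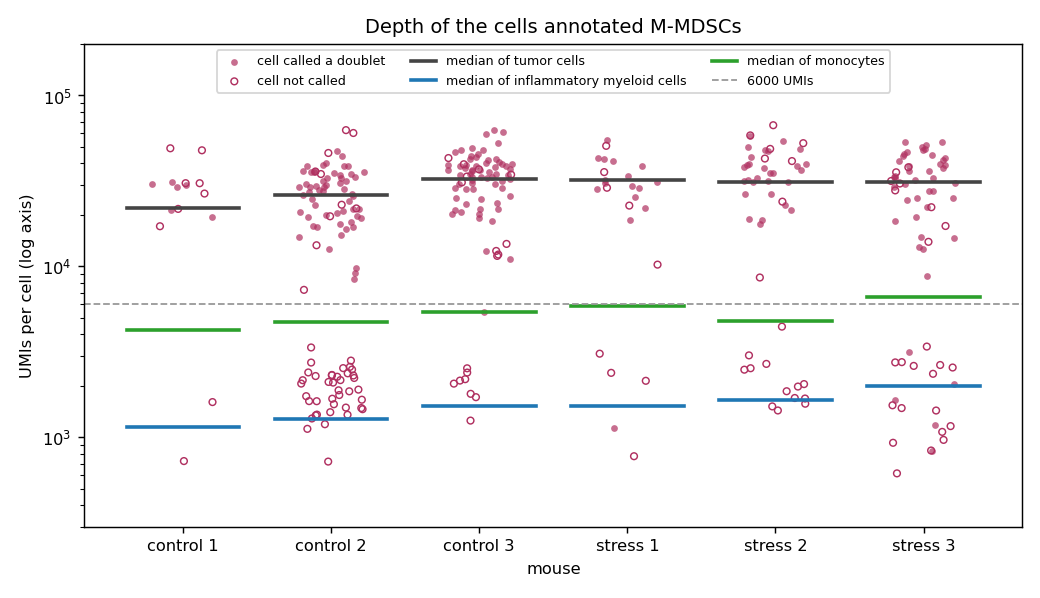
Each point is 1 of the 350 cells, by mouse, with its UMIs on a log axis. Filled points were called doublets, the bars are the medians of 3 other classes in that mouse, and the dashed line at 6000 UMIs separates 260 deep cells around the tumor median from 90 shallow cells near the inflammatory myeloid median.

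The depths fell into a deep and a shallow set. With a limit of 6000 UMIs, chosen after the depths were seen, 260 cells (74.3%) were deep and 90 (25.7%) were shallow, and 6 cells lay between 4000 and 9000 UMIs. The deep cells had a median of 31880.5 UMIs and held 97.9% of the UMIs of the class. For some genes the summed value still came largely from the shallow cells. These held 8350 of the 11860 class UMIs of Ccl4, 3998 of 7079 of Ccl3, 501 of 556 of Il6 and 793 of 1526 of Hdc. Of the deep cells 212 (81.5%) were called doublets, and of the shallow cells 7 (7.78%). The shallow cells had a median of 1894 UMIs and 796 genes, with 0.964% mitochondrial UMIs against 4.74% in the deep cells. They numbered 2, 40 and 9 in the control mice and 5, 13 and 21 in the stress mice, so the 2nd control mouse gave the most.

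Each deep cell had at least 1 UMI of the tumor and epithelial list and of the neutrophil list. The median deep cell held 30 UMIs of the tumor and epithelial genes (quartiles 21 and 48), and the median tumor cell held 31 (18 and 47). The median deep cell also held 69.5 UMIs of the neutrophil genes (39 and 127.25), and the median inflammatory myeloid cell held 69 (35 and 142). Of the tumor and epithelial genes, 84.0% of inflammatory myeloid cells had no UMI at all, and the median tumor cell had 1 UMI of the neutrophil genes. Single neutrophil markers were found in fewer deep cells, S100a9 in 216, S100a8 in 209 and Csf3r in 143 of 260. Srgn, which was found in all 260, was also in 98.4% of monocytes. Without Srgn and Hdc, a choice made after the data were seen, the other 20 neutrophil genes still had a UMI in 260 of 260 deep cells (median 48 UMIs), 47.9% of tumor cells (median 0), 99.7% of inflammatory myeloid cells (median 49) and 96.4% of monocytes (median 8). The 16 monocyte and macrophage genes gave 6 UMIs in the median deep cell, 5 in the median inflammatory myeloid cell and 52 in the median monocyte.

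**Figure D3:**
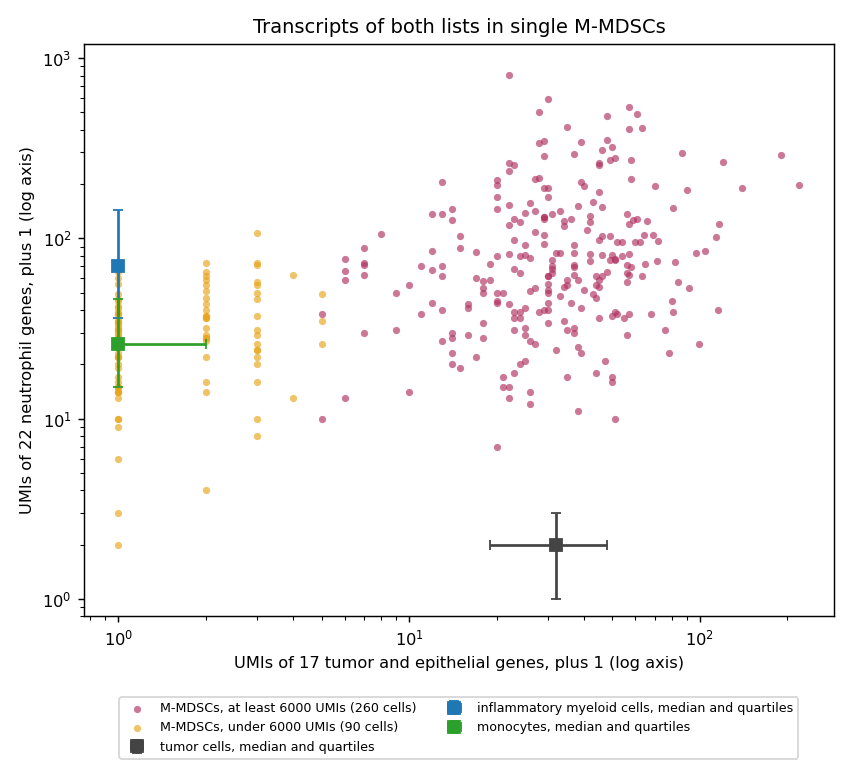
Each point is 1 of the 350 cells, with its UMIs of 17 tumor and epithelial genes on the horizontal and of 22 neutrophil genes on the vertical axis (both log, plus 1), and squares give the medians and quartiles of 3 other classes. The deep cells share the tumor cells' horizontal and the inflammatory myeloid cells' vertical position.

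At all depths 305 of the 350 cells (87.1%) had at least 1 UMI of both lists, including 260 of 260 deep and 45 of 90 shallow cells. In the shallow cells 53 of the 76 UMIs of the tumor and epithelial list were of Cdh1, which was at 0.462 CPM in tumor cells. Of their 2859 UMIs of the neutrophil list, 1800 were of Srgn and 793 of Hdc. A deeper cell is more likely to hold a UMI of any list, and 58.5% of tumor cells also had both lists. Cells were therefore thinned to 1000 UMIs each, which left out 8 cells of the class, 324 tumor cells, 984 inflammatory myeloid cells and 89 monocytes. Both lists then remained in 166 of 342 M-MDSC-annotated cells (48.5%, exact 95% interval 43.1% to 54.0%). The shares in the other classes, which serve as the background of free RNA and mixed droplets, were 3.14% of tumor cells, 9.81% of inflammatory myeloid cells and 7.60% of monocytes. With at least 2 UMIs of each list required, the shares were 42 of 342 cells of the class (12.3%), 0.150% of tumor cells, 0.789% of inflammatory myeloid cells and 0.632% of monocytes. The intervals cover counting error only; over the 6 mice the share in the class averaged 45.8% with an SD of 12.0. Without the cells called doublets the share was 52 of 124 (41.9%), but most of the cells not called doublets were shallow. The 48 deep cells not called doublets all had both lists before thinning.

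Genes of the sex chromosomes, which none of the lists held, were looked at after the data were seen. Xist, the RNA of the inactive X chromosome, is a transcript of female cells, and Ddx3y, Uty, Eif2s3y and Kdm5d lie on the Y chromosome of the male host. The median tumor cell held 43 UMIs of Xist, and 97.0% of tumor cells had at least 1. Of the deep cells 248 of 260 (95.4%) had Xist, with a median of 47 UMIs, against 13.6% of inflammatory myeloid cells and 24.5% of monocytes.

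At least 1 UMI of the 4 Y-linked genes was present in 146 deep cells (56.2%), against 28.0% of tumor cells at a near depth and 40.3% of inflammatory myeloid cells at a median of 1547 UMIs. The Y-linked level was 32.0 CPM in the deep cells, 12.5 CPM in tumor cells and 325 CPM in inflammatory myeloid cells. In tumor cells these UMIs were mostly of Ddx3y, with 9790 of Ddx3y, 436 of Uty, 236 of Eif2s3y and 89 of Kdm5d. The deep cells had 191, 39, 36 and 1 in the same order, and inflammatory myeloid cells 2583, 684, 936 and 49. Both kinds of transcript were found in 142 deep cells (54.6%, exact 95% interval 48.3% to 60.8%; 46.2% to 62.2% over the 6 mice). In tumor cells the share was 27.5% (15.4% to 36.2% over the mice), so the ranges over mice did not overlap. Among the 48 deep cells not called doublets the share was 21 of 48 (43.8%, 28.6% to 62.5% over the mice), which overlapped the 14.8% to 36.2% of tumor cells not called doublets. Of the 90 shallow cells 9 had Xist, 22 had a Y-linked UMI and 2 had both.

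The median depth of the deep cells was 30042, 27774 and 34396.5 UMIs in the control mice and 30839.5, 37656 and 32853 UMIs in the stress mice. It was above the tumor cell median of the same mouse in all but the 1st stress mouse, where the tumor cells had 32080.5 UMIs. The median inflammatory myeloid cell held 3.85%, 4.61%, 4.41%, 4.93%, 4.42% and 6.05% of the UMIs of the median deep cell of its mouse, in the same order. Over 323 to 763 genes at least 4-fold higher in inflammatory myeloid than in tumor cells, the deep profile lay a median of 6.26%, 5.24%, 5.66%, 6.604%, 5.42% and 7.62% of the way from the tumor to the myeloid level.

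The 90 shallow cells carried genes of basophils and mast cells that the deep cells mostly lacked. Granulocytes of this lineage carry the IgE receptor, store histamine and proteases, and release interleukin 4. The genes named here were chosen after their values were seen, and the levels are pooled over the 90 cells. Intervals on their shares cover counting error only and not the spread between mice. Cyp11a1, which starts steroid synthesis, had a UMI in 59 of 90 cells (65.6%, exact 95% interval 54.8% to 75.3%), against 9 of 260 deep cells, 0.655% of tumor cells and 0.0634% of inflammatory myeloid cells. Cd200r3, a basophil and mast cell receptor, was found in 50 of 90 cells, against 0.0337% of tumor cells and 0.270% of inflammatory myeloid cells. Gata2, a transcription factor of this lineage, was found in 48, against 5.06% and 0.333%. Without the 2nd control mouse Cyp11a1, Cd200r3 and Gata2 were found in 27, 24 and 19 of 50 shallow cells. The level of Cyp11a1 was then 747 CPM in place of 1008 CPM, and that of Gata2 528 CPM in place of 777 CPM.

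The IgE receptor chains Ms4a2 and Fcer1a were found in 31 and 25 of the 90 cells, and the protease Cpa3 in 29, each against 2 of 260 deep cells and at most 0.0978% of tumor cells and 0.0319% of inflammatory myeloid cells and monocytes. The basophil protease Mcpt8 was found in 20 (22.2%) at 315 CPM, against 8.85% of the deep cells at 9.22 CPM, 6.22% of tumor cells at 2.93 CPM and 0.127% of inflammatory myeloid cells. In the whole class Mcpt8 was at 79.0 CPM in the 1st stress mouse, with 3 UMIs in its shallow cells. The other mice were at most at 13.8 CPM. Il4 reached 1588 CPM (759.9 CPM without the 3rd stress mouse, which held 176 of its 282 UMIs) and was found in 24 cells, with no UMI in 6307 inflammatory myeloid cells and a UMI in 4 of 260 deep cells and 0.297% of tumor cells. Kit, the receptor of mast cells, was in 0 of 90 cells. At least 2 UMIs of the 6 listed mast cell and basophil genes were present in 56 of 90 shallow cells and in 13 of 260 deep cells, and the list summed to 1825 CPM in the shallow cells. All mice but the 1st control mouse, which gave 2 shallow cells, held cells with Cyp11a1 and Il4.

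Some cytokine genes were far higher in the shallow cells than in inflammatory myeloid cells, and others were lower. Ccl4 was found in 88 of 90 cells at 47033 CPM and Ccl3 in 87 at 22519 CPM, against 5323 and 5873 CPM in inflammatory myeloid cells. Il6 was found in 59 cells at 2822 CPM, against 242 CPM in monocytes, and Rgs1, a brake on chemokine receptors, in 71 at 4523 CPM. Hdc, the enzyme that makes histamine, was found in 74 cells at 4467 CPM against 1096 CPM in inflammatory myeloid cells. Cxcl2, in contrast, was at 2185 CPM (946 CPM without the 3rd stress mouse) against 32881 CPM in inflammatory myeloid cells, and Il1b at 1684 CPM against 7383 CPM. The 20 listed cytokines and chemokines summed to 90551 CPM, most of it from Ccl4 and Ccl3.

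Few shallow cells had a UMI of the single neutrophil and tumor markers named next. Of the 20 neutrophil genes other than Srgn and Hdc together, 47 of 90 shallow cells had a UMI (median 1). The depth of the shallow cells is far lower than that of the deep cells, so levels are given beside the shares. S100a9 was found in 11 of 90 shallow cells at 135 CPM, against 216 of 260 deep cells at 960 CPM; without the 3rd stress mouse the levels were 57.3 and 599 CPM. Csf3r was found in 8 shallow cells against 143 deep cells, with 67.6 CPM in the shallow and 38.1 CPM in the deep cells. The 3rd stress mouse held 10 of the 12 shallow UMIs, and without it Csf3r was in 2 of 69 shallow cells, at 14.3 CPM against 33.9 CPM in the deep cells. Krt18 was found in 3 cells at 22.5 CPM against 253 cells at 361 CPM, and Epcam in 1 at 5.63 CPM against 229 at 120 CPM. Without the 3rd control mouse Krt18 was in 2 of 81 shallow cells at 12.8 CPM, and the 1 UMI of Epcam was in the 3rd stress mouse. Csf1r and Ly6c2 were found in 2 shallow cells each, with 3 and 10 UMIs in all, 8 of those of Ly6c2 in the 2nd stress mouse. Of the 3 class markers, Acod1 was in 65 cells at 2518 CPM, close to the 2611 CPM pooled over inflammatory myeloid cells, Itgam in 23 at 158 CPM and Arg2 in 9 at 78.9 CPM against 56.9 CPM in the deep cells. Of the 14 shallow UMIs of Arg2 the 3rd stress mouse held 11, and without it Arg2 was in 3 of 69 shallow cells, at 21.5 CPM against 49.99 CPM in the deep cells. The 16104 CPM of the neutrophil list in shallow cells came largely from Srgn, at 10139 CPM, and Hdc, which basophils and mast cells also express.

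**Figure D4:**
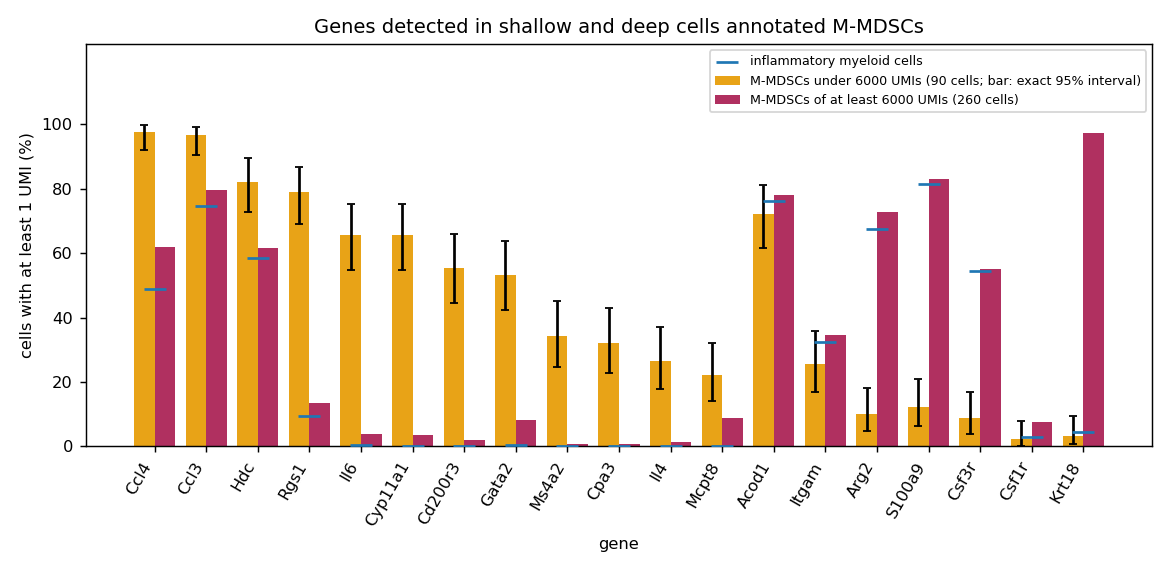
The bars give the percent of cells with at least 1 UMI of each gene in the 90 shallow cells (with exact 95% intervals) and the 260 deep cells, and blue marks give the inflammatory myeloid cells. Genes from Rgs1 to Mcpt8 are found in a larger share of the shallow cells, and Arg2, S100a9, Csf3r and Krt18 in a larger share of the deep cells. The shares are not adjusted for depth (median 1894 UMIs in shallow and 31880.5 in deep cells).

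The share of the class did not differ between the groups beyond the spread between mice. It was 0.142%, 0.919% and 0.897% of the annotated cells in the control mice and 0.345%, 0.530% and 0.652% in the stress mice. The 3 stress values lay inside the control range. The means were 0.653% ± 0.442 and 0.509% ± 0.154 (SD, n = 3 each), a difference of -0.144 percentage points (two-sided exact permutation test over mice, p = 0.6). With 3 mice against 3 the smallest p this test can give is 0.10.

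The depth and the makeup of the class did not differ detectably either. The median cell held 28977, 18600.5 and 33465 UMIs in the control mice and 28911, 31656 and 25126 UMIs in the stress mice (difference 1550 UMIs, exact permutation p = 0.9). The difference was -2657 UMIs without the 2nd control mouse, which holds 40 of the 90 shallow cells, and -8300 UMIs without the cells called doublets. Cells called doublets made up 40.0%, 53.7% and 78.3% in the control mice and 64.0%, 58.0% and 65.2% in the stress mice (exact permutation p = 0.7). The shallow share was 13.3%, 37.0% and 10.8% against 20%, 26% and 30.4% (exact permutation p = 0.6).

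Between stress and control mice, 53 of 9443 genes tested (0.561%) changed in the summed class at an adjusted p of 0.05 or less in edgeR's quasi-likelihood test. Of these 29 (0.307% of the genes tested) rose with stress and 24 (0.254%) fell. The 3 mice of a group did not overlap those of the other for any of the 53, nor for 1413 (14.96%) of all genes tested. The median log2 fold change over all genes was 0.00. The count was 32 without the 1st control mouse, 90 without the 2nd, 25 without the 3rd, and 13 of 4236 genes without the cells called doublets, all 13 of them among the 53. The counting version differs between the same mice, so its part in these changes cannot be told apart from that of stress, and the tumor cells of the same mice are given beside the main genes.

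Thbs1, thrombospondin 1, an extracellular protein that restrains vessel growth, rose with stress. It was at 18.0, 35.7 and 31.5 CPM in the control mice and 114, 124 and 160 CPM in the stress mice. The stress mice were all above the control mice, with a log2 fold change of 2.11 ± 0.23 (SE; adjusted p = 0.00111, edgeR). Tumor cells of the same mice changed by 1.10 ± 0.41 (adjusted p = 0.0919, edgeR). The call was lost without the cells called doublets (adjusted p = 0.725, edgeR).

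Of the 10 largest increases, 4 were genes with changes of similar size in tumor cells. Gphn, gephyrin, was at 121, 219 and 162 CPM in the control mice and 689, 638 and 1007 CPM in the stress mice (log2 fold change 2.18 ± 0.23 SE, adjusted p = 0.00111, edgeR; tumor cells 2.02). Camk1d, a calmodulin-dependent kinase, rose by 2.17 (tumor cells 2.19), Cmss1 by 2.16 (tumor cells 1.84) and Lars2, the mitochondrial leucyl-tRNA synthetase, by 2.15 (tumor cells 2.23). With Cdk8, at 1.75, these make 5 of the 6 genes of a list drawn from these same libraries as higher in stress libraries of every class, so their direction is not independent evidence.

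The other named increases rested on few UMIs. Phkg1, a subunit of phosphorylase kinase, was at 2.58, 3.06 and 3.19 CPM in the control mice and 27.3, 19.9 and 15.6 CPM in the stress mice (log2 fold change 2.67 ± 0.40 SE, adjusted p = 0.00759, edgeR). Pde4c, a phosphodiesterase of cyclic AMP, had 1 UMI in the 3 control mice together and 56 UMIs in the stress mice (adjusted p = 0.0107, edgeR), a ratio of levels of 74.2 with an exact 95% counting interval of 12.8 to 2982. Gm3336 and the kinase Aatk rose from at most 1.53 CPM in any control mouse to at least 7.12 CPM in every stress mouse. Gstp1, a glutathione transferase, rose by 2.07 on the log2 scale (adjusted p = 0.0405, edgeR). With 1 mouse left out the call of Gstp1 was lost in 6 of 6 fits, that of Aatk in 4 (without the 1st or 3rd control or the 1st or 3rd stress mouse) and that of Gm3336 in 3 (without the 1st or 3rd control or the 2nd stress mouse). The call of Pde4c was lost without the 3rd control or the 2nd stress mouse (adjusted p up to 0.127, edgeR) and that of Phkg1 without the 3rd control mouse (adjusted p = 0.0739, edgeR).

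The immediate early genes Egr1, Fos and Ier2, transcription regulators switched on within minutes of a stimulus, fell with stress. Egr1 was at 1611, 1389 and 1099 CPM in the control mice and 604, 426 and 588 CPM in the stress mice (log2 fold change -1.34 ± 0.19 SE, adjusted p = 0.00502, edgeR). Fos was at 1248, 902 and 912 CPM against 462, 311 and 462 CPM (-1.31 ± 0.20, adjusted p = 0.00908, edgeR; 0.0536 without the 1st control mouse), and Ier2 at 619, 678 and 483 CPM against 249, 270 and 204 CPM (-1.30 ± 0.17, adjusted p = 0.00261, edgeR). In tumor cells the same genes changed by -0.83, -1.16 and -0.997 on the log2 scale. With cells thinned to 1000 UMIs all 3 calls were lost (adjusted p = 0.0963, 0.217 and 0.0857 in that order, edgeR). In the main test these 3 were the genes called among 22 of the NF-kappaB and immediate early list, beside 0.561% of all genes called in either direction. The list's median was -0.045, and 7 of the 22 had an unadjusted p under 0.05, beside 9.56% of all genes tested. Nfkbia, the inhibitor of NF-kappaB, was at 1243 to 1349 CPM in the control mice and 676 to 1032 CPM in the stress mice but did not pass (adjusted p = 0.191, edgeR). DESeq2 called it and Jun as well, 5 of the list in all, beside 82 of the 19439 genes it tested.

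Of the other decreases, those of Ctla4, Plxdc2 and Ryr3 are given beside the same gene in tumor cells. Ctla4, best known as an inhibitory receptor of T cells, was at 85.1, 70.9 and 65.4 CPM in the control mice and 24.3, 22.1 and 17.5 CPM in the stress mice (log2 fold change -1.79 ± 0.22 SE, adjusted p = 0.00181, edgeR). It changed by -1.81 in tumor cells, and the listed T and NK cell genes averaged 5.97 CPM in the class. Plxdc2 fell by 1.84 on the log2 scale (tumor cells -1.68), Ryr3, a calcium release channel, by 1.85 (tumor cells -1.92), and Nudcd3 and Eno1b by 1.60 each. Gm46563, ENSMUSG00000121655, Gm2000 and Wdr89 completed the 10 largest decreases. Without the cells called doublets the calls of Ctla4 (adjusted p = 0.172, edgeR), Plxdc2, Nudcd3, Gm46563 and Wdr89 were lost, and with cells thinned to 1000 UMIs those of Gm2000 (adjusted p = 0.0990, edgeR), Nudcd3 and Wdr89. With 1 mouse left out the call of Ryr3 was lost in 4 of 6 fits (all but those without the 2nd control or 2nd stress mouse) and that of Eno1b in 5 (all but that without the 2nd control mouse). Eno1b, Gm2000, Gstp1, and called genes such as Rpl9-ps6, Rps27rt, Uba52rt and Rps18-ps6 have near-identical copies, so their counts are uncertain where reads could be assigned to either.

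**Figure D5:**
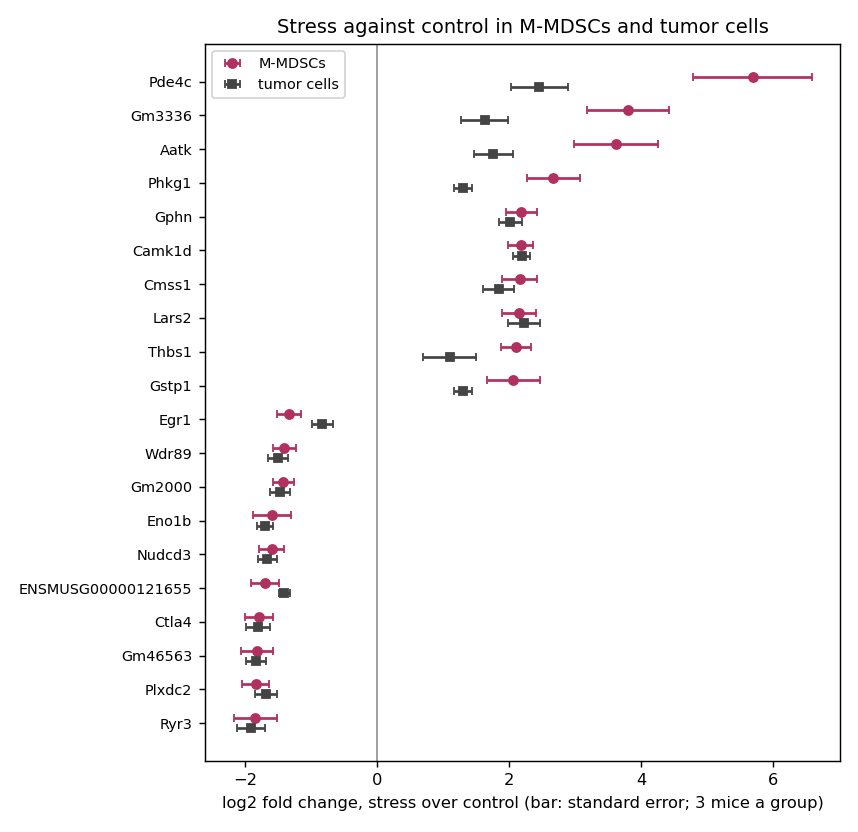
Log2 fold changes of stress over control (points, with standard errors; 3 mice a group) for the 20 named genes in the M-MDSC-annotated cells (circles) and in the tumor cells of the same mice (squares). The points of Gphn, Camk1d, Cmss1 and Lars2 lie between 1.84 and 2.23 in both classes, and those of Pde4c lie at 5.69 and 2.45.

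The myeloid lists held no gene that passed the test. In edgeR 0 of 17 tested suppressor function genes (median log2 fold change 0.47), 0 of 16 neutrophil genes (0.39), 0 of 19 cytokines and chemokines (0.38), 0 of 16 of their receptors (0.41), 0 of 14 shared myeloid genes (0.26) and 0 of 4 monocyte and macrophage genes (0.13) were called, beside a median of 0.00 over all genes. At an unadjusted p under 0.05 these lists held 5, 3, 3, 4, 1 and 2 genes in the same order, beside 903 of all 9443 genes tested (9.56%), and DESeq2 also called 0 in each. Acod1 had a log2 fold change of 1.18 ± 0.54 (adjusted p = 0.515), Itgam of -0.07 ± 0.44 (adjusted p = 0.994) and Arg2 of 0.47 ± 0.30 (adjusted p = 0.687), all in edgeR. S100a9 was at 462, 719 and 457 CPM in the control mice and 559, 686 and 2477 CPM in the stress mice (adjusted p = 0.410, edgeR), so the 3rd stress mouse alone stood apart. Cebpb, a transcription factor of suppressor cells, was at 420, 602 and 542 CPM against 774, 674 and 941 CPM (log2 fold change 0.60, adjusted p = 0.261, edgeR) and also did not pass.

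Among the remaining lists only heat shock held a called gene. Hspa1b, an inducible HSP70, was at 111, 94.9 and 67.4 CPM in the control mice and 287, 176 and 329 CPM in the stress mice (log2 fold change 1.59 ± 0.26 SE, adjusted p = 0.0130, edgeR; tumor cells 0.87), and was 1 of 12 tested, beside 0.307% of all genes that rose. The call was lost without the 3rd control mouse, without the 3rd stress mouse and without the cells called doublets (adjusted p = 0.127, 0.0523 and 0.580, edgeR). DESeq2 called 6 of the heat shock list, adding Hspa1a, Hspa8, Hsp90aa1, Hspb1 and Dnajb1, beside 82 of 19439 genes called by it in all. The median log2 fold change of the list was 0.62 in edgeR, 8 of the 12 had an unadjusted p under 0.05 (9.56% of all genes tested), and the groups did not overlap for 6 of the 12 (14.96% of all genes). Hspa8 was at 652, 778 and 762 CPM in the control mice and 1140, 1192 and 1126 CPM in the stress mice, with no overlap (log2 fold change 0.65, adjusted p = 0.0651, edgeR). No gene was called among 25 cell cycle genes (median -0.28), 19 hypoxia and glycolysis genes (-0.43), 16 glucocorticoid and adrenergic genes (-0.20), 9 interferon genes (0.58), 8 tumor and epithelial genes (0.21), 5 MHC class II genes (0.48), 5 aryl hydrocarbon and pregnane X receptor genes (0.28) and 3 mast cell and basophil genes (-0.41) in edgeR. In the same order 3, 8, 5, 1, 1, 0, 0 and 0 had an unadjusted p under 0.05, beside 9.56% of all genes tested. DESeq2 called 0 in each except for Pgam1, Ldha and Ndrg1 of the hypoxia and glycolysis list, beside its 82 of 19439 genes. Of 2 endothelial genes tested 0 were called (1 at an unadjusted p under 0.05), and the lists of T and NK cells, B cells, dendritic cells, fibroblasts, red cells and hepatocytes held 0 genes that passed the filter on low counts. Outside the lists, and grouped after the calls were seen, 6 of 13 tested transcripts of the mitochondrial genome rose and 0 fell (median log2 fold change 0.70, beside 0.307% of all genes tested that rose). Of these mt-Nd2 was at 1067, 1085 and 1049 CPM in the control mice and 2768, 2927 and 2184 CPM in the stress mice (log2 fold change 1.29 ± 0.14 SE, adjusted p = 0.00111, edgeR; tumor cells 1.06). The median mitochondrial share of the cells was 3.74%, 2.89% and 3.98% in the control mice and 5.20%, 5.65% and 3.90% in the stress mice (exact permutation p = 0.2), and its part in these values was not tested.

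In the other classes of the same mice, stress against control called 4041 of 18856 genes in tumor cells, 0 of 9219 in inflammatory myeloid cells (365 at an unadjusted p under 0.05) and 15 of 12251 in monocytes. Whether the effect itself differed was tested as an interaction of class and group in edgeR, with the mouse as a block. Against tumor cells 40 of 17430 genes (0.229%) differed, 28 with a higher and 12 with a lower effect in the M-MDSC-annotated cells. With RLE in place of TMM normalization the split was 22 and 17. The count was 12 without the 3rd control mouse, and limma on the differences within mice called 0 (635 at an unadjusted p under 0.05).

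Of the differences with the smallest p, these were higher in the class. Antxr2, an anthrax toxin receptor, was at 74.8, 162 and 97.7 CPM in the control mice and 296, 267 and 233 CPM in the stress mice, and its effect exceeded that in tumor cells by 0.88 ± 0.14 on the log2 scale (SE; adjusted p = 3.29e-06, edgeR). Acod1 exceeded it by 0.86 ± 0.17 (adjusted p = 0.000753, edgeR), although neither class passed on its own. Ptk2b, a kinase of leukocyte adhesion, and Chst11 were also higher, by 1.22 and 1.03, and S100a9 by 0.76. The S100a9 difference was -0.13 without the cells called doublets.

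The lower differences were led by Ubb, a ubiquitin gene. Ubb was at 126, 243 and 206 CPM in the control mice and 159, 101.1 and 120 CPM in the stress mice, a difference from tumor cells of -1.34 ± 0.15 (SE; adjusted p = 1.54e-14, edgeR). In the deep cells alone its difference was lost (adjusted p = 0.128, edgeR). Elmo1, Slpi, Ier3 and Egr1 followed, with differences of -1.55, -0.998, -0.69 and -0.58.

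Against inflammatory myeloid cells no difference was called, 0% of 10562 genes in edgeR, where the unadjusted p was under 0.05 for 275 genes, and limma also called 0 (272 at an unadjusted p under 0.05). Without the 1st control mouse the count was 1. Against monocytes 2 of 11696 genes (0.0171%) differed. The effect on Aatk was larger by 4.69 ± 0.65 and that on Fn1, fibronectin, by 1.52 ± 0.21 on the log2 scale (SE; adjusted p = 0.0234 for both, edgeR). Fn1 was at 229, 286 and 468 CPM in the control mice and 650, 496 and 1174 CPM in the stress mice in the M-MDSC-annotated cells. The count was 0 without the 1st or the 3rd control mouse or the 3rd stress mouse, 1 without the 2nd stress mouse, 6 without the 1st stress mouse, 18 without the 2nd control mouse, and 0 without the cells called doublets.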

How the data were processed

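Per the labels and matrix headers, the authors counted reads with Cell Ranger (9.0.0 for control, 7.1.0 for stress libraries) against mm10. The deposited values are whole UMI counts of each gene in each cell without normalization, beside a table of cluster and cell class. The gene annotation they used is not given in the sources used here; 32109 of 34099 gene identifiers were in GENCODE M21 (GRCm38), which gave positions. Cells were kept as annotated, and doublets were called per library with Scrublet (scanpy 1.11.5, expected rate 0.05, seed 1) and kept. Class sums of each mouse went into the quasi-likelihood test of edgeR 4.0.16 under R 4.3.3, with filterByExpr, TMM and Benjamini-Hochberg adjustment over all genes tested, at a threshold of 0.05. The test steps were checked on simulated data. Each library is 1 mouse, and the 3 mice of a group are its replicates.

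The class sums held the UMIs of 15 to 108 cells per mouse, which sets their precision. The members and gene lists were chosen with earlier results of these data known. Named for stress against control were the 10 higher and 10 lower genes with the largest log2 fold change among called genes whose groups did not overlap, for each profile the 10 largest ratios among genes of at least 50 CPM that were higher in all 6 mice, for interactions up to 5 genes each way by p, for lists the called members and those with the highest level, and Acod1, Itgam and Arg2. The genes of the shallow cells, the sex chromosome genes, Nfkbia and Cebpb were named after their values were seen. Alternatives were DESeq2 1.42.0, RLE normalization, other filters on low counts, a replicate block, leaving out each mouse or the called doublets, and thinned cells, and, chosen after seeing the data, cells of at least 6000 UMIs and limma 3.58.1 on differences within mice.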

Additional observations from a re-analysis of the deposited data

Results flagged for a closer look

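A test of the difference itself, the interaction of class and group in edgeR with the mouse as a block, singled out the following results. The effect of stress differed between the M-MDSC-annotated cells and the tumor cells for 40 genes. That effect cannot be told apart from the effect of the counting version, and limma on the differences within mice called no gene. On the log2 scale, class minus tumor cells, the differences were 0.88 for Antxr2, 1.22 for Ptk2b, 0.76 for S100a9, 1.03 for Chst11 and 0.86 for Acod1. They were -1.34 for Ubb, -0.69 for Ier3, -1.55 for Elmo1, -0.998 for Slpi and -0.58 for Egr1. The difference of S100a9 turned negative without the cells called doublets, and that of Ubb was lost in the deep cells alone. Ptk2b was at 18.0, 67.3 and 29.1 CPM in the control mice and 56.2, 64.8 and 99.8 CPM in the stress mice, so the groups overlapped in the class itself. Elmo1 was at 36.1, 50.5 and 43.0 CPM against 37.96, 29.9 and 49.9 CPM in the class, while it rose by 1.28 on the log2 scale in tumor cells (adjusted p = 0.0103, edgeR). Slpi, an inhibitor of neutrophil proteases, rose by 1.52 in tumor cells (adjusted p = 0.0355, edgeR) and had a log2 fold change of 0.48 in the class (adjusted p = 0.744, edgeR).

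Between the class and the monocytes the effect differed for 2 genes, by 4.69 for Aatk and by 1.52 for Fn1. In the class Aatk had 0, 3 and 3 UMIs in the control mice and 12, 10 and 37 in the stress mice.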

How the results depend on the processing

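The 53 genes called between stress and control became 82 with DESeq2, 321 with no filter on low counts, 13 without called doublets and 5 of 875 with cells thinned to 1000 UMIs, and 25 to 90 with 1 mouse left out. The cause was not tested, other than that fewer genes entered the last tests of fewer UMIs. All 53 were also called with RLE normalization, and 51 in cells of at least 6000 UMIs. Of the 20 named genes 13 kept their call with any 1 mouse left out. Mice with the same number deviated together with correlations of 0.171, 0.0905 and 0.0195, and 3 of 6 correlated best with their own number. These few values cannot decide whether the numbers pair the mice, and the main test did not pair them. A replicate block gave 124 genes and left the difference in share at -0.144 (exact permutation p = 0.5). The 40 differences from tumor cells became 26 without called doublets, 0 with limma and 12 to 55 with 1 mouse left out, and the difference of S100a9 turned to -0.13 without doublets. Against inflammatory myeloid cells leaving out 1 mouse gave 0 to 1. The 2 differences from monocytes became 7 in cells of at least 6000 UMIs, 1 with limma, 0 without doublets and 0 to 18 with 1 mouse left out. Itgam, not called in any of these, had a log2 fold change of 0.028 with the replicate block and of -0.56 to 0.29 with 1 mouse left out. The difference in median UMIs was -8300 without doublets and -2657 to 4776 with 1 mouse left out, and the share of thinned cells with both lists was 12.3% when 2 UMIs of each were required. The gene test was not run on cells with no UMI of the tumor list, of which 1 to 19 remained per mouse. Depth limits the shallow cells most: they hold 2.08% of the UMIs of the class, so genes were not compared between groups in them.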

Other observations

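Among the called genes not described above were several that also changed in tumor cells. Spata7, a gene of the photoreceptor cilium, was at 248, 288 and 299 CPM in the control mice and 639, 564 and 858 CPM in the stress mice (log2 fold change 1.29, adjusted p = 0.00571, edgeR; tumor cells 1.10). Tagln2, an actin-binding protein, was at 794, 772 and 650 CPM in the control mice and 421, 495 and 420 CPM in the stress mice (-0.73, adjusted p = 0.0425, edgeR; tumor cells -0.76). Dap, a regulator of autophagy, fell by 0.96 on the log2 scale (tumor cells -0.89) and Map7, a microtubule protein, by 1.29 (tumor cells -1.59). Without the cells called doublets all 4 calls were lost. With 1 mouse left out the call of Tagln2 was lost in 6 of 6 fits, that of Dap in 5 (all but that without the 2nd control mouse) and that of Map7 in 4 (all but those without the 2nd control or 1st stress mouse).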
